A study of Homo sapiens with 2 samples.

Results

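To describe how the histone genes behaved when CRNDE was knocked down, the genes encoding replication-dependent and variant histones were followed in NB4, a human acute promyelocytic leukemia line in which PML is fused to RARα. Members were chosen by gene name alone (names starting HIST1H to HIST4H, H2AF, H1F or H3F3, pseudogene names left out), which gave 39 of the 11619 listed genes. Of these, 33 were replication-dependent and 6 were variant genes, and no listed gene had an H1F name. NB4 cells received lentivirus carrying either an shRNA against the long non-coding RNA CRNDE (sh-CRNDE) or a non-targeting shRNA (sh-Control), and RNA was taken on day 3. Each condition is 1 library, so there is no replicate check and no difference below carries a test. Both arms carry the lentiviral vector and its fluorescent marker. The study designed more than one CRNDE shRNA, and the labels do not say which was sequenced.

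Histones are the proteins around which DNA is wound. A pair of H2A-H2B dimers and an H3-H4 tetramer form the nucleosome core, and H1 binds the linker DNA between cores. Replication-dependent genes sit in clusters of many copies, lack introns and are expressed mainly while DNA is copied. Their mRNA normally ends in a conserved stem-loop, bound by SLBP, in place of a poly(A) tail. Variant genes are scattered and mostly spliced, end in a poly(A) tail and are expressed through the cell cycle, and in cycling leukemia cells both kinds are in use. The library kit selects RNA with a poly(A) tail and does not mark strand, so mRNA ending at the stem-loop is poorly recovered and its whole pool was not measured here.

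The stem-loop is shown because, near the transcript end, it sets most replication-dependent genes apart from the variant genes. A search of the last 100 bases of each canonical GENCODE 44 transcript (build GRCh38) for a 6-base stem starting with GG around a 4-base loop found it in 28 of the 31 matched replication-dependent genes and in 0 of the 6 variant genes. The hairpin ended a median of 5 bases before the transcript end, with a range of 3 to 18 bases. The 28 hairpins took 5 forms, printed 5′ to 3′ with the stem arms in capitals and 1 gene as the example of each.
HIST1H1E: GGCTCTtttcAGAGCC
HIST1H2BC: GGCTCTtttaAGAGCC
HIST1H4A: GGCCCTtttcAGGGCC
HIST1H4I: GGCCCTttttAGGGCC
HIST2H2AC: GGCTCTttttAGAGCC
These examples lie in the only exon of their canonical transcripts, at chr6:26157095-26157110 (plus strand), chr6:26123472-26123487 (minus strand), chr6:26022030-26022045 (plus strand), chr6:27139654-27139669 (plus strand) and chr1:149887391-149887406 (plus strand), in that order. The first form occurred in 16 genes, the second in 5, the third and the fourth in 3 each and the last in 1. The forms with a GGCCCT stem belonged to the H4 genes and no others. H2AFX and HIST2H2BE, whose canonical transcripts run on past the coding part, carried the hairpin 1024 and 1729 bases before the end, and HIST1H2AG and HIST2H2BA had none.

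Promoter sequences are shown for 3 H2B genes with different outcomes: HIST1H2BL was listed at 0 only in sh-Control, HIST2H2BE was listed at 0 only in sh-CRNDE, and HIST1H2BG was present in both libraries. Each runs from 250 bases before to 50 bases after the RefSeq start (GRCh38.p14), in lower case, with capitals for the octamer (ATTTGCAT), TATAAA and CCAAT on either strand. The octamer is the element bound by POU2F1, a regulator of H2B genes.
HIST1H2BL: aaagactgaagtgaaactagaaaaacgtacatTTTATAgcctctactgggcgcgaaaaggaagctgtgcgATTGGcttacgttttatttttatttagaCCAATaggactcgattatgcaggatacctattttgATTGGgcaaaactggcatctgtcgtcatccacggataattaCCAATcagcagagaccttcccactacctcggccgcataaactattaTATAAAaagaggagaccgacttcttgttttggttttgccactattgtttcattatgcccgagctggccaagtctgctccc
HIST2H2BE: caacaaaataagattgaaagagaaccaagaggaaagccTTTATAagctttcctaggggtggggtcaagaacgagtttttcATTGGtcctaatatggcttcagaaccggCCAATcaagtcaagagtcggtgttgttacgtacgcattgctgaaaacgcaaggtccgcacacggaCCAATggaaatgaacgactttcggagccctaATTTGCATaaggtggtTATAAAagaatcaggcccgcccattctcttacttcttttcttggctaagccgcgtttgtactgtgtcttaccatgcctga
HIST1H2BG: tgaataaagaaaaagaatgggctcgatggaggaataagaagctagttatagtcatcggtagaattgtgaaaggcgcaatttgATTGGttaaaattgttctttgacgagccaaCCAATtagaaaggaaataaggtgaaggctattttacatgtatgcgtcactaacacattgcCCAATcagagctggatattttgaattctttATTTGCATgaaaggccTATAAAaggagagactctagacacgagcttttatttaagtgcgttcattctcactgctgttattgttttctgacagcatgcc
They lie at chr6:27807880-27808179, chr1:149886633-149886932 and chr6:26216639-26216938, all on the minus strand. The octamer began 46 bases before the start in HIST2H2BE and 48 bases before it in HIST1H2BG, and this window of HIST1H2BL held none. A promoter was in the table for 36 members. The octamer occurred in 10 of 13 replication-dependent H2B promoters, 4 of 7 H2A promoters and the promoter of the variant H3F3B, against 1.77% of all 35116 RefSeq promoters of this length. None of the 10 replication-dependent H1, H3 and H4 promoters held it. The windows of neighbouring H2A and H2B genes overlap, and the octamers of the 4 H2A promoters are the same bases as those of their H2B neighbours. Each such site is therefore counted for both genes, here and among the 15 members below. Among replication-dependent genes, TATAAA was in all 7 H2A, all 3 H3, 9 of 13 H2B, 1 of 2 H1 and 0 of 5 H4 promoters. It was in 2 of 4 variant H2A and 1 of 2 variant H3 promoters, against 11.5% of all promoters. CCAAT was in all 2 H1, 7 H2A, 13 H2B and 3 H3 promoters and in 1 of 5 H4 promoters, against 34.6% of all promoters. The 4 variant H2A and 2 variant H3 promoters all held it too. The only TATAAA match in the window of HIST1H2AE is likewise that of HIST1H2BG, and the only one of HIST1H2BC is that of HIST1H2AC. CCAAT sites where windows overlap are also counted for both genes. Of the 15 members with an octamer, 4 were past 1.5-fold upward and 5 downward, beside 22 of all 39 members (56.4%) and 17.2% of all listed genes, so members with the motif were called about as often as the histone genes in general.

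Values are FPKM, fragments counted per unit of transcript length and of mapped fragments, which allow levels of different genes to be compared per length. A change is log2(FPKM + 1) in sh-CRNDE less the same in sh-Control, and a gene was called past 1.5-fold (a change of 0.58). CRNDE, the targeted transcript, fell from 5.92 to 1.85 FPKM, a change of -1.28. Of the 7 promyelocyte markers, 6 were listed, from 4.46 FPKM for CD33 to 1135 FPKM for MPO in sh-Control, and ELANE was not listed. In sh-CRNDE, 5 of the 6 were lower past 1.5-fold, with changes of -0.62 for MPO, -0.96 for CTSG, -1.09 for AZU1, -2.23 for PRTN3 and -2.33 for SRGN, and CD33 was at 3.74 FPKM. These genes of granule proteins moved beside the histone values below, and their part in them was not tested. Of the markers of other cell types, HBB, CD3E and COL1A1 were not listed, and EPCAM was at 4.82 and 4.49 FPKM. The FPKM summed to 141217 in sh-Control and 170373 in sh-CRNDE, where MT-RNR2, the large mitochondrial ribosomal RNA, took 16.2%. MT-RNR2 is listed at 0 in sh-Control although every cell uses it, so a 0 in these data says only that a gene is listed at 0. The depth of the libraries is unknown.

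Summed over each kind, replication-dependent histone genes stood higher in sh-CRNDE and variant genes lower, both by less than 1.5-fold. The 33 replication-dependent genes summed to 188.1 FPKM in sh-Control against 263.8 FPKM in sh-CRNDE, a change of 0.49. The 6 variant genes summed to 326.5 and 269.7 FPKM, a change of -0.27. All 39 genes together were at 514.6 and 533.5 FPKM, a change of 0.052, so the total hardly moved. Replication-dependent genes made up 36.6% of histone FPKM in sh-Control and 49.4% in sh-CRNDE. In bulk RNA, fewer cells that express a gene and less RNA per cell cannot be told apart.

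By class, H1 and H2A were the replication-dependent sums past 1.5-fold, both upward. H1 summed to 3.55 and 35.5 FPKM (change 3.005), and H2A to 54.5 and 97.6 FPKM (change 0.83). H2B summed to 61.6 and 72.8 FPKM (change 0.24), H3 to 7.17 and 10.0 FPKM (change 0.43) and H4 to 61.3 and 47.9 FPKM (change -0.35). These calls rested on genes listed at 0 in one library. With such genes left out, the H2A change was 0.51, no longer past 1.5-fold, and H3 was 0.68, now past it. H4 was 0.18 and H2B was -0.086, both with the sign turned, and H1 had no value. The H3 value was then that of the near-identical copies HIST2H3A and HIST2H3C alone. In H2A, the copies HIST2H2AA3 and HIST2H2AA4 were kept under this setting and summed to 23.3 and 45.5 FPKM. The variant H2A sum was 239.2 and 191.4 FPKM (change -0.32) and the variant H3 sum 87.3 and 78.3 FPKM (change -0.15). With both kinds added, H2A came to 293.7 and 289.0 FPKM, a change of -0.023. Both genomic clusters stood higher in sh-CRNDE, the 22 HIST1 genes on chromosome 6 with 125.8 and 181.8 FPKM (change 0.53) and the 11 HIST2 genes with 62.3 and 82.0 FPKM (change 0.39).

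The replication-dependent sums rested on genes that were listed in one library and at 0 in the other. Such genes stood on both sides. The 7 genes at 0 in sh-Control summed to 83.9 FPKM in sh-CRNDE, and the 7 genes at 0 in sh-CRNDE summed to 38.5 FPKM in sh-Control. The 19 genes above 0 in both libraries summed to 149.6 and 179.8 FPKM, a change of 0.26. Without the copies HIST2H2AA3 and HIST2H2AA4, the other 17 summed to 126.3 and 134.3 FPKM, a change of 0.087. Most of the difference between the libraries in replication-dependent FPKM was thus held by the genes at 0 on one side and by this copy pair.

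In count, 21 of the 33 replication-dependent genes were past 1.5-fold, 10 higher and 11 lower, as was 1 of the 6 variant genes, lower. Together these are 22 of 39 (56.4%), beside 17.2% of all listed genes (8.38% higher and 8.83% lower). The 656 single-exon genes that are no histone gene had a share of 50.9%, close to that of the histone genes, while the 10815 genes with several exons had 14.9%. A gene listed at 0 in one library is past 1.5-fold by construction, since every listed gene exceeds 0.5 FPKM in at least 1 library. Such genes made up 42.4% of the replication-dependent genes, 36.7% of the other single-exon genes and 0.518% of the genes with several exons. Among genes above 0 in both libraries, 7 of 19 replication-dependent genes were past 1.5-fold (36.8%), against 22.4% of other single-exon genes and 14.9% of all genes. Of those 7 genes, 4 belonged to the near-identical copy pairs described below. The median change was 0.15 over the 39 members, 0.16 over the other single-exon genes and -0.0072 over all genes. The median of the members was thus close to that of single-exon genes in general.

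Replication-dependent genes of low level were called more often. Of the 14 that averaged 5 FPKM or more, 6 were past 1.5-fold, and of the 19 that averaged less, 15 were, beside 17.2% of all listed genes at any level. A listed 0 fixes the call and lowers the average, and it occurred in 4 of the 14 and 10 of the 19. With those left out, 2 of 10 and 5 of 9 were past 1.5-fold. The share of all genes at these levels was not computed. All 31 matched replication-dependent genes had a canonical transcript of 1 exon, but 11 also had a spliced transcript in GENCODE 44. Of these 11 genes, 2 were listed at 0 in one library, against 12 of the 20 with no spliced transcript. Calls did not follow this split, with 7 of the 11 genes (63.6%) and 13 of the 20 (65%) past 1.5-fold. Among genes above 0 in both libraries, 5 of 9 with a spliced transcript (55.6%) and 1 of 8 without one (12.5%) were past it. The part of level and annotation in these differences was not tested.

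**Figure D1:**
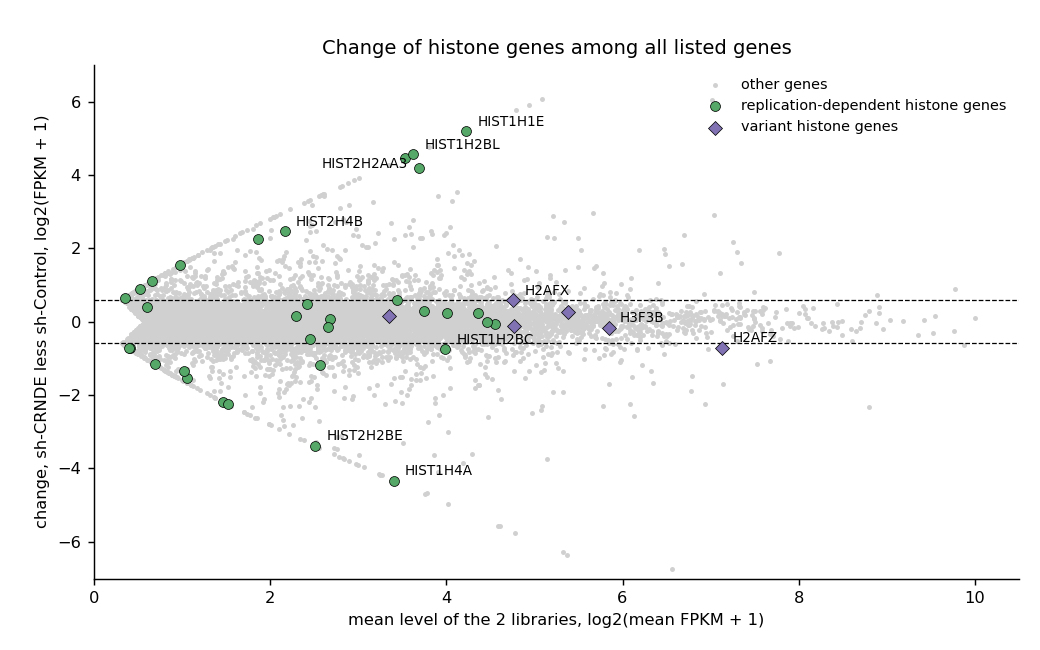
Change in log2(FPKM + 1) (vertical axis) against the log2 of the mean FPKM + 1 of both libraries (horizontal axis) for the listed genes. Histone genes are marked and dashed lines are at 1.5-fold. Genes beyond the axes, such as MT-RNR2 (change 14.8) and HNRNPA1P7 (change 8.06), are not drawn. Of the 33 replication-dependent genes, the 14 listed at 0 in one library lie along both outer edges and 12 lie between the lines, while 5 of the 6 variant genes lie between the lines and H2AFZ lies below them.

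Among linker histones, 1 gene was found in each library. HIST1H1E (chr6:26156329-26157115) was listed at 0 in sh-Control and reached 35.5 FPKM in sh-CRNDE, the highest value of any replication-dependent gene. HIST1H1C (chr6:26055740-26056470) was at 3.55 FPKM in sh-Control and listed at 0 in sh-CRNDE. The H1 sum of each library is therefore a single gene, and a different one.

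Among the 7 H2A genes, 2 went up past 1.5-fold and 1 down. The share called was 42.9%, beside 17.2% of all listed genes and 50.9% of the other single-exon genes. HIST1H2AI was listed at 0 in sh-Control and reached 21.1 FPKM in sh-CRNDE, and HIST2H2AC went from 1.24 FPKM to a listed 0. HIST1H2AE (chr6:26216921-26217437) was the steadiest member, with 21.12 FPKM in sh-Control against 21.10 FPKM in sh-CRNDE. HIST1H2AG (5.23 and 5.62 FPKM) and HIST1H2AC (3.64 and 4.16 FPKM) also stayed within 1.5-fold. The rest of the H2A difference lay in the copies HIST2H2AA3 and HIST2H2AA4.

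Of the 14 H2B genes, 5 were higher, 5 lower and 4 within 1.5-fold. The share called was 71.4%, beside 17.2% of all listed genes and 50.9% of the other single-exon genes. All 5 higher genes were listed at 0 in sh-Control and 2 of the lower ones in sh-CRNDE, which fixes the call. Of the 7 genes above 0 in both libraries, 3 were past 1.5-fold, all lower. HIST1H2BC (chr6:26086317-26123926) fell from 18.96 to 10.8 FPKM, a change of -0.75, and was the most abundant H2B gene in sh-Control. HIST1H2BL was listed at 0 in sh-Control and reached 22.7 FPKM in sh-CRNDE, the highest H2B value there. HIST2H2BE was at 9.44 FPKM and HIST1H2BH at 3.77 FPKM in sh-Control, and both are listed at 0 in sh-CRNDE. The leading H2B gene thus differed between the libraries. HIST2H2BF held 13.9 and 16.4 FPKM (change 0.23) and was 22.6% of the H2B sum in both. HIST1H2BG had 7.69 and 12.01 FPKM, a change of 0.58 that lay just under the threshold, and HIST1H2BD 3.45 and 5.28 FPKM (change 0.50). Transcripts of low level made up the rest: HIST1H2BN (2.10 and 0.0625 FPKM) and HIST1H2BE (1.93 and 0.145 FPKM) fell, and HIST1H2BO, HIST1H2BK, HIST1H2BF and HIST1H2BJ were listed at 0 in sh-Control and between 0.560 and 1.93 FPKM in sh-CRNDE. HIST2H2BA, which GENCODE 44 lists as a pseudogene, was at 0.315 and 0.734 FPKM.

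The 4 H3 genes were the least abundant class after H1 in sh-Control, and 1 rose and 2 fell past 1.5-fold. The share called was 75%, beside 17.2% of all listed genes and 50.9% of the other single-exon genes. HIST2H3D (0.653 FPKM) and HIST1H3J (0.635 FPKM) were found in sh-Control and are listed at 0 in sh-CRNDE. The remainder was the copy pair HIST2H3A and HIST2H3C. Among the H4 genes, HIST1H4A (chr6:26021649-26022050) was at 19.2 FPKM in sh-Control and listed at 0 in sh-CRNDE, which is more than the whole difference between the H4 sums. HIST1H4E held 17.99 and 21.3 FPKM (change 0.23), HIST1H4H 11.1 and 13.8 FPKM (change 0.29) and HIST1H4I 5.41 and 3.59 FPKM (change -0.48). The H4 genes other than HIST1H4A therefore stood on both sides of no change.

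**Figure D2:**
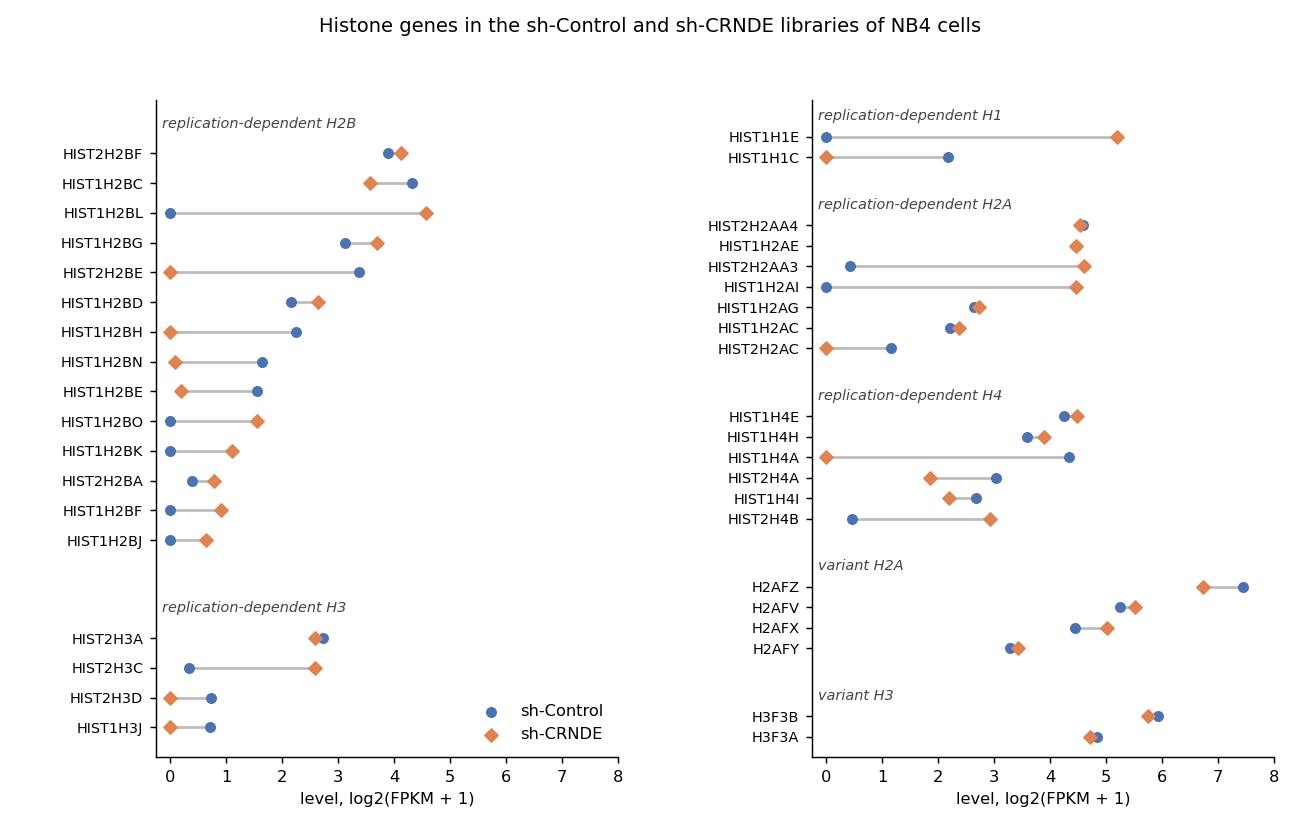
Level of each of the 39 histone genes, as log2(FPKM + 1), in sh-Control (circles) and sh-CRNDE (diamonds), grouped by class, with a line joining the values of a gene. Long lines that start at 0 mark genes listed in one library only, such as HIST1H1E, HIST1H2BL and HIST1H4A, and the variant genes at the lower right have short lines.

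Variant genes were measured in both libraries without a listed 0, and H2AFZ was the member that changed. H2AFZ (chr4:99948086-99950355, 5 exons), one of the genes of H2A.Z, a variant placed at promoters, fell from 172.9 to 105.5 FPKM, a change of -0.71. It was the most abundant histone gene in both libraries. H2AFV (chr7:44826791-44848087), the other H2A.Z gene, was at 36.8 and 44.6 FPKM (change 0.27), and H2A.Z as a whole at 209.8 and 150.1 FPKM (change -0.48). H2AFX (chr11:119093874-119095465), whose protein is phosphorylated around DNA breaks, was at 20.7 and 31.5 FPKM, and its change of 0.58 lay just under the threshold. H2AFY (chr5:135334381-135399914), which encodes the macroH2A found in silent chromatin, was at 8.70 and 9.74 FPKM (change 0.15). H2AFZ thus stood against the other 3 variant H2A genes, whose sum was 66.3 FPKM in sh-Control against 85.9 FPKM in sh-CRNDE (change 0.37). The share of H2AFZ in variant H2A was 72.3% and 55.1%.

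The H3F3 genes encode H3.3, the H3 that is placed outside replication. H3F3B (chr17:75776434-75785893) was at 59.8 and 53.1 FPKM (change -0.17) and H3F3A (chr1:226061851-226072019) at 27.5 and 25.2 FPKM (change -0.12). Their values kept nearly the same ratio in both libraries, with H3F3B at 68.5% and 67.8% of the sum. Without H2AFZ, the other 5 variant genes summed to 153.5 and 164.2 FPKM (change 0.096), so the lower variant sum in sh-CRNDE rested on a single gene. As the kit does not mark strand, reads of H2AFZ, H2AFY, HIST1H4H and HIST1H2BC cannot be told from those of genes annotated on the opposite strand over the same exons. H3.3 and H2A.Z genes also have processed copies in the genome, so their values are uncertain to that extent.

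Reads of near-identical copies on chromosome 1 cannot be told apart over the bases they share, so their sums are given beside the single values. How shared reads were assigned in each library is not known. A read counted at both copies would raise the sum, so the sums are uncertain too, and this was not tested. HIST2H2AA3 (RefSeq, chr1:149842218-149842750) and HIST2H2AA4 (chr1:149851061-149851594) share an identical run of 533 bases. HIST2H2AA4 was at 22.9 and 22.1 FPKM and HIST2H2AA3 at 0.348 and 23.4 FPKM, which gave a sum of 23.3 and 45.5 FPKM and a change of 0.94. HIST2H3A and HIST2H3C share 518 bases, with 5.63 and 5.01 FPKM for the first and 0.258 and 5.02 FPKM for the second. In both of these pairs one copy kept its value and the other was near 0 in sh-Control and level with its partner in sh-CRNDE. The HIST2H3A and HIST2H3C sum was 5.89 and 10.0 FPKM (change 0.68). HIST2H4A and HIST2H4B have identical transcripts of 396 bases and moved in opposite directions, with changes of -1.19 and 2.47, while their sum was 7.61 and 9.25 FPKM (change 0.25). Of 177 pairs of members of a class, 11 shared an identical run of at least 100 bases, and 13 members belonged to such pairs.

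Replication-dependent H2A and H2B genes often lie head to head and share a promoter region, and 5 such pairs had both members listed, with 232 to 247 bases between their starts. HIST1H2BL and HIST1H2AI, 243 bases apart, were both listed at 0 in sh-Control and had 22.7 and 21.1 FPKM in sh-CRNDE. HIST2H2BE and HIST2H2AC, 235 bases apart, were at 9.44 and 1.24 FPKM in sh-Control and both listed at 0 in sh-CRNDE. In these 2 pairs both genes went the same way, from or to a listed 0. In none of the other 3 pairs were both genes past 1.5-fold. HIST1H2BG, at 7.69 and 12.01 FPKM, and HIST1H2AE, at 21.12 and 21.10 FPKM, both stayed within it. HIST1H2BC fell past it beside HIST1H2AC at 3.64 and 4.16 FPKM. HIST1H2BJ went from a listed 0 to 0.560 FPKM beside HIST1H2AG at 5.23 and 5.62 FPKM. The 3 promoters printed above belong to the pairs of HIST1H2BL, HIST2H2BE and HIST1H2BG.

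**Figure D3:**
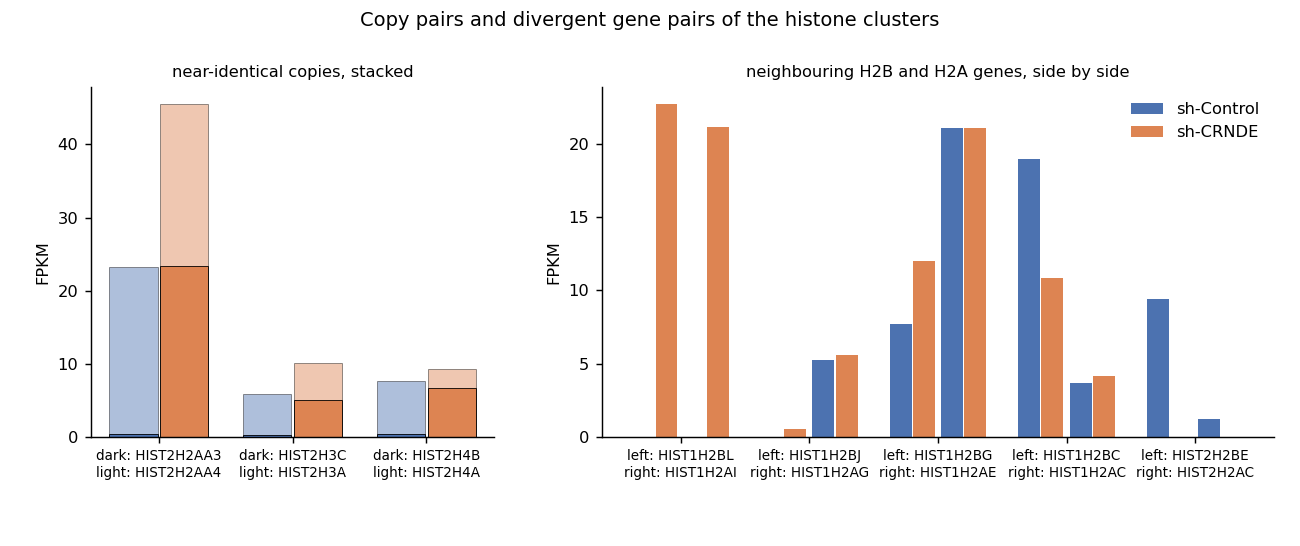
FPKM of near-identical copies (left, stacked, one copy dark and the other light) and of neighbouring H2B and H2A genes (right, H2B at the left of each group), in sh-Control (blue) and sh-CRNDE (orange), 1 library per bar. The HIST2H2AA pair goes from 23.3 to 45.5 FPKM through one copy, and the bars of HIST1H2BL and HIST1H2AI stand in sh-CRNDE only.

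Of the genes that make and degrade histone mRNA, 27 of a list of 28 were listed, and 2 were higher and 4 lower past 1.5-fold (22.2%, against 17.2% of all genes, with a median change of 0.0053). The name not listed, TUT7, is another symbol of ZCCHC6, which was. SLBP, the stem-loop binding protein, was at 75.7 and 91.1 FPKM (change 0.26), and NPAT, the coactivator of histone gene transcription, at 3.62 and 4.31 FPKM (change 0.20). LSM10, a ring protein of the U7 particle that directs histone mRNA cleavage, fell from 6.49 to 0.278 FPKM, a change of -2.55, while its partner LSM11 was at 5.27 and 5.30 FPKM. CPSF2, a subunit of the cleavage complex, rose from 5.24 to 10.6 FPKM (change 0.90), and NCBP2, the small subunit of the cap-binding complex, from 4.18 to 15.0 FPKM (change 1.63). WDR82 fell from 33.3 to 10.6 FPKM (change -1.56), TUT1, a uridylyltransferase, from 6.03 to 1.57 FPKM (change -1.45) and CDK9, the kinase that releases paused polymerase, from 15.2 to 7.35 FPKM (change -0.96). The other cleavage subunits CPSF1, CPSF3 and SYMPK were not past 1.5-fold, though CPSF1, at 16.4 and 10.8 FPKM (change -0.57), lay just short of it.

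Of a list of 49 genes, mostly histone chaperones and remodellers, 48 were listed, 2 higher and 2 lower (8.33%, against 17.2% of all genes, with a median change of 0.037). The name not listed, MACROH2A1, is the current symbol of H2AFY, given above among the variants. CENPA, also on the list, is itself an H3 variant that the naming rule left out of the members, at 6.52 and 6.70 FPKM. SET, a chaperone that masks histone tails, rose from 89.0 to 151.1 FPKM (change 0.76), and ATRX, which places H3.3 with DAXX, from 7.31 to 12.8 FPKM (change 0.74). SRCAP, the remodeller that places H2A.Z, fell from 12.6 to 5.64 FPKM (change -1.03). MCM2, a helicase subunit that carries H3 and H4 at the replication fork, fell from 74.9 to 41.5 FPKM (change -0.83). NASP, a chaperone of soluble H3 and H4, was at 26.7 and 37.0 FPKM (change 0.46), and HIRA, which places H3.3 at active genes, at 14.8 and 15.8 FPKM (change 0.088).

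**Figure D4:**
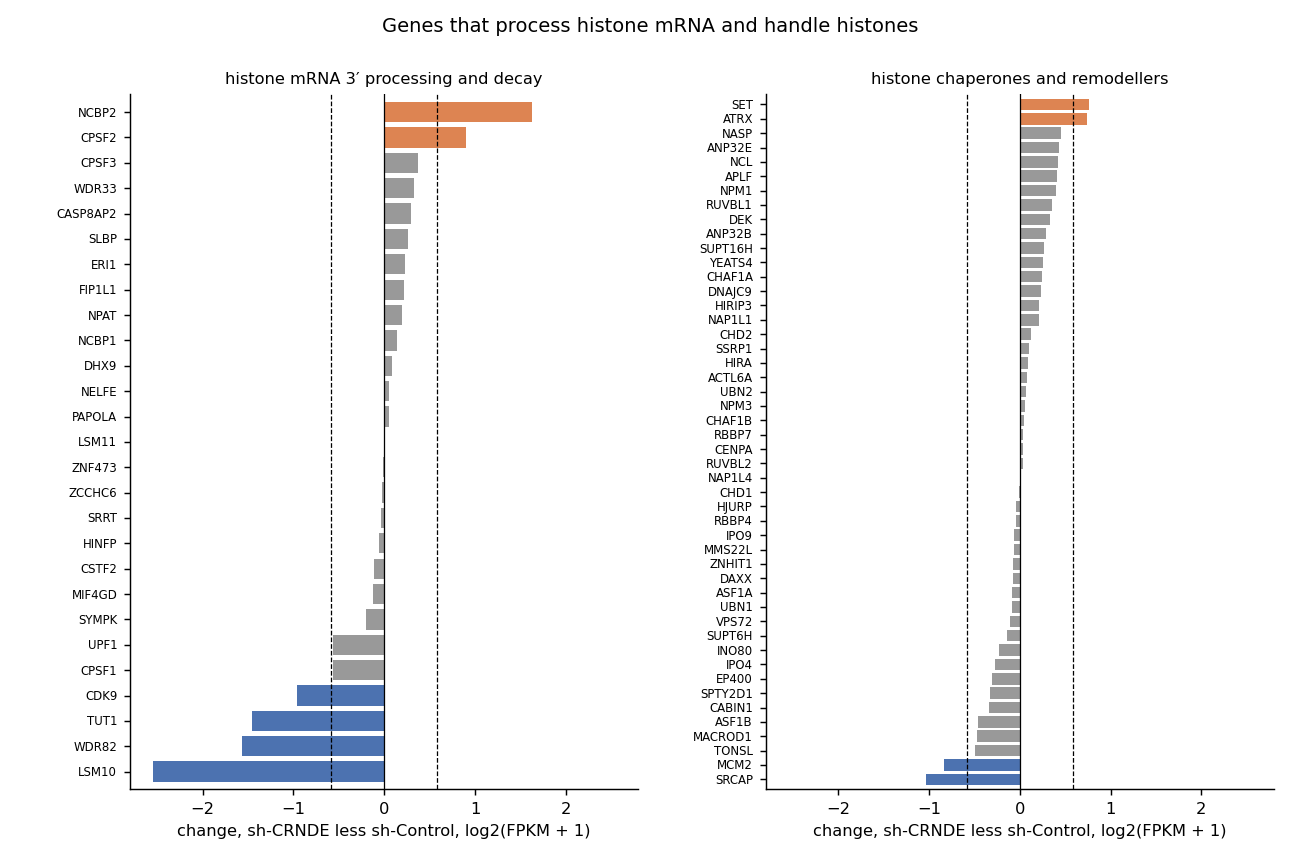
Change in log2(FPKM + 1), sh-CRNDE less sh-Control, of the 27 listed genes of histone mRNA processing and decay (left) and the 48 listed genes of the chaperone and remodeller list, with CENPA among them (right), with dashed lines at 1.5-fold and colored bars past it. On the left LSM10 reaches -2.55 and NCBP2 1.63, and on the right all bars but those of SET, ATRX, SRCAP and MCM2 are within the lines.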

How the data were processed

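RNA from 1 sh-CRNDE and 1 sh-Control library of NB4 cells was prepared with the Illumina TruSeq RNA v2 kit. The authors deposited FPKM per gene, 1 value per library. The submitters' processing notes name fastp 0.20.0, HISAT2 2.0.4, StringTie 1.2.3 and build GRCh38, and the annotation is not given in the sources used here. Read counts are not part of these values, so depth, intervals and counting floors cannot be given. Groups come from the labels, and 0 per-sample columns were left unused.

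From the FPKM, class sums, changes of log2(FPKM + 1) and calls past 1.5-fold (the threshold of the study) were computed with Python 3.11.15, numpy 2.4.6 and pandas 2.3.3, and the calculation was tested on simulated data. Of the members, 37 matched GENCODE 44 by identifier. HIST2H2AA3 and HIST2H2AA4 were placed by RefSeq symbol, and promoters come from RefSeq (GRCh38.p14). Named with both values were members at or above 5 FPKM in a library or at or above 2 FPKM where the other is listed at 0, pathway genes past 1.5-fold with a mean of at least 1 FPKM (at most 12 per list), SLBP, NPAT, NASP, HIRA and CRNDE. Other members, LSM11, CPSF1, CPSF3 and SYMPK were named after their values were seen. Some markers of other cell types are not reported here. Members and lists were chosen with earlier results of these data known. Alternatives were pseudocounts of 0.1 and 0.01, centring, rescaling, a 2-fold threshold, a mean of at least 1 FPKM, and leaving out genes listed at 0 or the largest member.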

Additional observations from a re-analysis of the deposited data

How the results depend on the processing

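With genes listed at 0 in one library left out, the replication-dependent H2A change was 0.51, no longer past 1.5-fold, H3 was 0.68, now past it, H2B was -0.086 and H4 was 0.18, both with the sign turned, and 3 replication-dependent genes were higher and 4 lower. The H1 sum gave no value under this setting, as both genes are listed at 0 in one library. The H3 value under it was that of the copies HIST2H3A and HIST2H3C alone. The variant sum without H2AFZ was 0.096. With a mean of at least 1 FPKM, 6 replication-dependent genes were higher and 8 lower. With pseudocounts of 0.1 and 0.01, 13 were higher under each, and 11 and 12 were lower. With the 2-fold threshold, 8 were higher and 8 lower. With pseudocounts of 0.1 and 0.01 and with centring, 1 variant gene was higher, H2AFX (0.60, 0.60 and 0.59). With pseudocounts of 0.1 and 0.01, 6 mRNA processing genes were lower, against 4 in the main setting. At 2-fold, 0 variant genes were lower, 1 mRNA processing gene was higher, and 0 chaperone genes were higher and 1 lower.

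Of the 28 named members, 24 kept their side of the threshold under all 4 scalings and pseudocounts. The others were H2AFX, HIST1H2BG (0.64, 0.64 and 0.59), HIST1H2BD (0.60 and 0.61 with the pseudocounts) and HIST1H4I (-0.59 with a pseudocount of 0.01), and each went past it in the direction it already had. Summing the copy pairs, chosen after seeing the data, left 9 replication-dependent genes or pairs higher and 10 lower. With 1 library per group, no library could be left out. No paired analysis was possible because each group has a single library. Depth is unknown and limits low values most.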
